A study of Mus musculus with 6 samples.

Results

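The genes described here are 26 members of the pathway that makes, senses and moves cholesterol, taken by a list of gene symbols from the 57180 genes of the deposited count table. RNA was sequenced from wild-type (WT) mouse ES cells (embryonic stem cells) and from ES cells with the genotype Mpp8/Tasor dko (dKO), both of strain C57BL/6, with 3 libraries of each. MPP8 (gene Mphosph8) and TASOR belong to HUSH, a complex that silences retroelements and some genes in heterochromatin. The labels give no clone, passage or culture medium, and do not say whether the libraries of a genotype came from separate cultures. The p-values set the genotype difference against a spread estimated from these libraries, and that spread may be technical. By role, 7 members belong to the mevalonate route, 11 to the sterol branch, 6 are regulators and 2 move sterols. The set is named for synthesis and uptake, but none of the 26 encodes a lipoprotein receptor. Stard4 acts in transport inside the cell and Abca1 in export, and receptors were read from a separate list.

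Animal cells build cholesterol from acetyl-CoA. The mevalonate route ends in farnesyl diphosphate, which also feeds protein prenylation, dolichol and ubiquinone. Squalene synthase commits it to sterols, and a series of oxidations, demethylations and reductions in the endoplasmic reticulum turns lanosterol into cholesterol. When sterols are low, SCAP escorts the SREBP transcription factors to the Golgi, where they are cleaved, and they then activate most genes of the pathway. When sterols are high, INSIG proteins hold SCAP back. Oxysterols activate the liver X receptors (LXR), which raise genes of sterol export.

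Upstream sequences are shown for 6 members that stand for the different outcomes below, since SREBPs are known to act at promoters together with NF-Y and Sp1. They are the 250 bases before an annotated start site, from RefSeq on GRCm38.p6, 5′ to 3′ on the gene's strand. The deposited values were made on GRCm39, per the submitters' processing notes, and carry no coordinates. Capitals mark matches, on either strand, to the sterol response element TCACNCCAC, the NF-Y box CCAAT and the GC box GGGCGG. No letters of one motif overlapped another in these 6.
Hmgcs1, not called, chr13:119690101-119690350, plus strand: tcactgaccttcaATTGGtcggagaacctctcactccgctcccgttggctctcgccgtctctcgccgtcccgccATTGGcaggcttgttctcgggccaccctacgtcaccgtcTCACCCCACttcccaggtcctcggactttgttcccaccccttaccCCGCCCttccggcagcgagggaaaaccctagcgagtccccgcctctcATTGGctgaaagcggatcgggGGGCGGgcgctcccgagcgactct
Insig1, higher in dKO, chr5:28071162-28071411, plus strand: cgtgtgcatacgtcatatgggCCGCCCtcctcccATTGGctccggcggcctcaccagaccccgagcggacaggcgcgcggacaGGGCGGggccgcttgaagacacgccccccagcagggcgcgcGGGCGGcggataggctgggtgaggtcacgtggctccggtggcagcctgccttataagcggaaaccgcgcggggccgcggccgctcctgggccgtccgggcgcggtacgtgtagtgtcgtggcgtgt
Ebp, higher in dKO, chrX:8193513-8193762, minus strand: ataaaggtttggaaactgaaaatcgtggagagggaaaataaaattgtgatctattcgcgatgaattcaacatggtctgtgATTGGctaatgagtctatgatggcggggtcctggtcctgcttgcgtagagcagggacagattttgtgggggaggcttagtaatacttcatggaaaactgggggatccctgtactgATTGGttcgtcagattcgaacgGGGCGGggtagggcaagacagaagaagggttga
Abca1, higher in dKO, chr4:53159896-53160145, minus strand: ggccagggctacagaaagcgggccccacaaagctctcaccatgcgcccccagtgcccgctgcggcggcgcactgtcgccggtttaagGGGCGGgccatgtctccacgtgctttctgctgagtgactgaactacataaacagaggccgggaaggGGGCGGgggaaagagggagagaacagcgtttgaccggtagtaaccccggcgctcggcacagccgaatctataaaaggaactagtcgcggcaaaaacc
Idi1, lower in dKO, chr13:8885356-8885605, plus strand: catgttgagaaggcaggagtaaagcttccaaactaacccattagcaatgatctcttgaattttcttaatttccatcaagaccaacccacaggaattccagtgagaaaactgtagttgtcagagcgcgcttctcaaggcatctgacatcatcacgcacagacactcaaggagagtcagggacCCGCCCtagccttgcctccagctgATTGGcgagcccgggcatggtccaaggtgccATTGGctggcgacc
Sc5d, lower in dKO, chr9:42264301-42264550, minus strand: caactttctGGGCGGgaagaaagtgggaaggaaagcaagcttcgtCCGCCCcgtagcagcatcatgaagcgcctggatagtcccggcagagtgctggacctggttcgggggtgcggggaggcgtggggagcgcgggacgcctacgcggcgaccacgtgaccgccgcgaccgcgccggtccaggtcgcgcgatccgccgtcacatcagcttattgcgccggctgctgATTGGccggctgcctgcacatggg

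The promoter table held 30 start sites of 22 members. Fdps, Fdft1, Sqle and Stard4 had no entry. An exact match to the sterol response element TCACNCCAC was found in 1 of the 30 sequences (3.33%), that of Hmgcs1. It begins 137 bases before the start site. Such a match was in 1.05% of all 32851 promoters of the same length. Sequences that differ from these letters were not counted, so a promoter without a match may still hold such an element. The NF-Y box was in 63.3% of the members' sequences and in 33.8% of all, and the GC box in 76.7% and 32.7%. All promoters here means those of 27025 genes, expressed in these cells or not, while every member was expressed enough to be tested. Shares among promoters of tested genes alone were not taken, so whether these contrasts are particular to the pathway was not tested. The NF-Y box was in 4 of the 5 promoters of members higher in dKO, in 3 of the 4 of members lower in dKO, and in 12 of the 21 of members that were not called. The GC box was in 5 of 5, 2 of 4 and 16 of 21 of these promoters. The differences between these small sets were not tested. These matches are descriptions of the letters in a window and show no binding.

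Total counts ran from 18384774 to 24910498 per library. Levels are given as CPM, the counts scaled to a common library size by TMM factors, and log2 fold changes compare dKO with WT, so that positive values are higher in dKO. A gene counted as called when edgeR's quasi-likelihood test gave it a Benjamini-Hochberg adjusted p below 0.05 over all 15714 genes tested. Of these 34.3% were called, 16.4% higher and 17.9% lower in dKO. Without dKO replicate 1 there were 3588 calls in place of 5392, 1845 of them lower in place of 2814. Mphosph8 fell from 119, 147 and 119 CPM in the WT replicates to at most 0.207 CPM in dKO, and Tasor from 145, 201 and 141 CPM to at most 10.7 CPM. Both of these targeted genes lie on chromosome 14. The pluripotency genes Pou5f1 (log2 0.04) and Esrrb (log2 0.17) were not called. Of 9 pluripotency markers, 2 fell (22.2%, beside 17.9% of all genes), Tdgf1 and Lin28a. WT replicate 2 was the deepest library and had 2.29% mitochondrial counts, against 1.34% to 1.63% elsewhere.

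Cholesterol genes moved in both directions in dKO, and no role moved as a block. All 26 members passed the low-count filter. Of these, 5 rose, 6 fell and 15 were not called, so 42.3% were called, beside 34.3% of all genes. The members' median log2 fold change was 0.0006 and that of all tested genes was -0.02. In 14 of 26 members the CPM of the 2 genotypes did not overlap, beside 49.2% of all genes. The largest rise was Abca1 (log2 1.08) and the largest fall Pmvk (log2 -0.90). With TMM factors computed without the genes of chromosomes 14, X and Y, 3 members rose and 6 fell. Without WT replicate 2, 8 rose and 7 fell, and 3 rose without WT replicate 3 or any 1 dKO replicate.

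**Figure D1:**
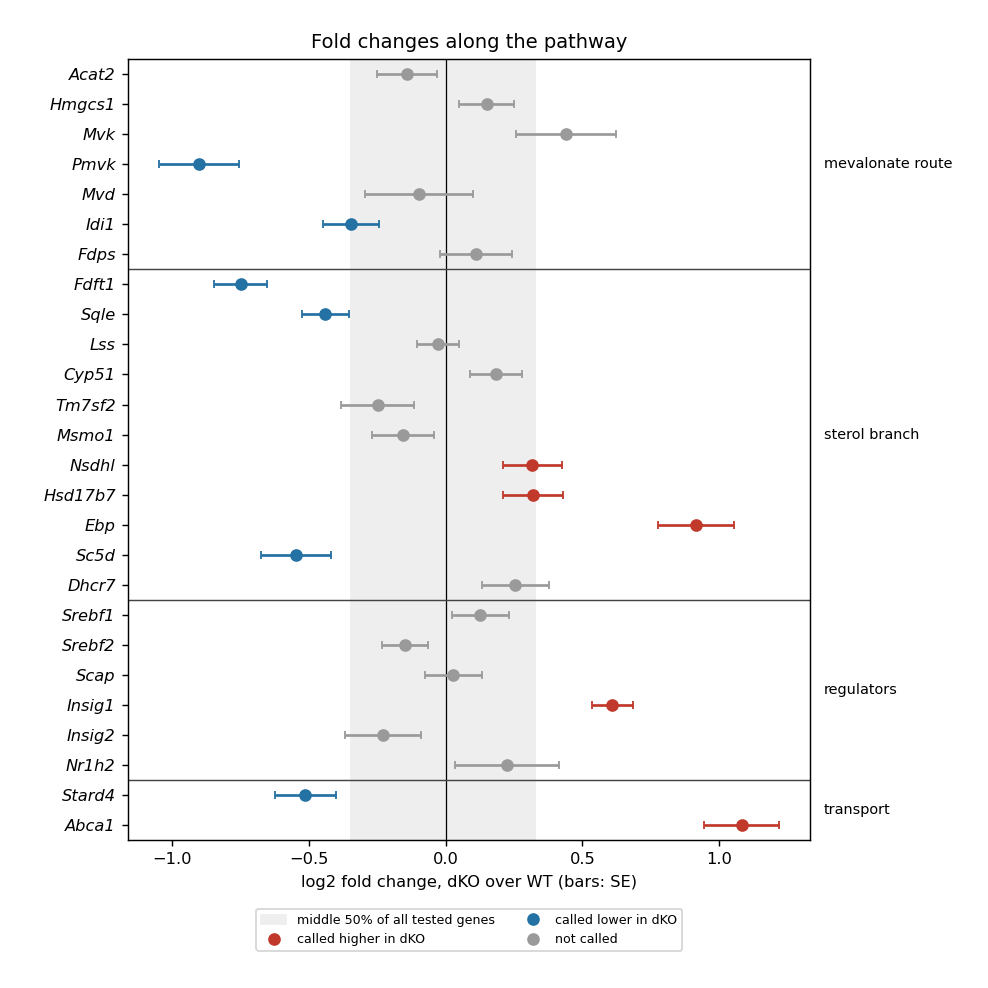
Log2 fold change (dKO over WT) of the 26 cholesterol genes in pathway order, with bars for the SE; red is called higher, blue called lower, grey not called, and the shaded band is the middle 50% of all tested genes (-0.35 to 0.33). Calls of both directions lie side by side in the sterol branch, from Fdft1 (-0.75) to Ebp (0.91).

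In the mevalonate route 2 of 7 enzymes fell, Pmvk and Idi1, and none rose (28.6% called, beside 34.3% of all genes). Pmvk, phosphomevalonate kinase, was at 29.8, 26.1 and 35.7 CPM in WT replicates 1, 2 and 3 and at 14.9, 15.6 and 18.5 CPM in dKO replicates 1, 2 and 3. Every dKO library was below every WT library, and the dKO mean was 53.6% of that in WT. Its log2 fold change was -0.90 (SE 0.146, edgeR adjusted p = 0.00149), and it was called in all 11 alternative settings. Idi1, the isomerase that makes dimethylallyl diphosphate, was at 132, 169 and 146 CPM in WT and at 116, 121 and 115 CPM in dKO. The genotypes did not overlap, with WT replicate 1 the closest to the dKO libraries. The log2 fold change of Idi1 was -0.35 (SE 0.102, edgeR adjusted p = 0.0268), and the call was lost with library totals in place of TMM factors (edgeR adjusted p = 0.0614) and without any 1 dKO replicate (0.0793 to 0.112).

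The other 5 enzymes of the route were not called. Hmgcs1, the synthase whose promoter holds the sterol response element printed above, was at 296, 349 and 279 CPM in WT and 351, 347 and 327.5 CPM in dKO. WT replicate 2 lay among the dKO libraries and the other 2 WT libraries lay below them. Its log2 fold change was 0.15 (SE 0.1, edgeR adjusted p = 0.28), and without WT replicate 2 it was called higher (log2 0.25, edgeR adjusted p = 0.0149). Mvk, mevalonate kinase, was at 20.3, 12.1 and 17.1 CPM in WT and 22.5, 20.0 and 24.4 CPM in dKO. Here only WT replicate 1 reached the dKO range, and without it the gene was called higher (log2 0.62, edgeR adjusted p = 0.0403), as it was with a replicate block (edgeR adjusted p = 0.0134) and without a low-count filter (0.0237). As reported its log2 fold change was 0.44 (SE 0.183, edgeR adjusted p = 0.0929).

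Mvd, the decarboxylase that follows Pmvk, had its lowest value in WT replicate 2. It was at 56.7, 34 and 59.9 CPM in WT and 45.2, 43 and 52.4 CPM in dKO, so the dKO libraries lay between the WT libraries. Its log2 fold change of -0.10 (SE 0.199, edgeR adjusted p = 0.744) became -0.32 with a call without WT replicate 2 (edgeR adjusted p = 0.0235). Acat2, the cytosolic thiolase of the first step, averaged 115 ± 11.9 CPM across WT and 105 ± 10.5 CPM across dKO libraries (SD, n = 3 each). Fdps, farnesyl diphosphate synthase, averaged 191 ± 32.6 and 206 ± 19.1 CPM (SD, n = 3 each). Both overlapped between genotypes, with log2 fold changes of -0.14 and 0.11. Per length, Fdps was the most abundant member in both genotypes, at 291 ± 19.9 TPM in WT and 329 ± 16.6 TPM in dKO (SD, n = 3 each). Fdps shares 1124 exon bases with Gm43738 on the same strand, a gene that was not tested. In all, 9 members share exon bases with another gene, 4 of them with a tested gene.

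Of the 11 enzymes of the sterol branch, 3 rose and 3 fell, with 5 not called (54.5% called, beside 34.3% of all genes). Summed over the branch, the level was 739, 822 and 743 CPM in WT replicates 1, 2 and 3 and 723, 708 and 703 CPM in dKO replicates 1, 2 and 3, while the summed mevalonate route overlapped between genotypes (848 to 882 CPM in WT, 826 to 876 CPM in dKO). The branch sums did not overlap on the CPM scale, but they did on the TPM scale (391 to 577 TPM in WT, 419 to 489 TPM in dKO). These sums include Fdft1, and with its CPM left out the branch overlapped between genotypes on the CPM scale as well. Fdft1, squalene synthase, which turns farnesyl diphosphate to sterols, was at 117, 116 and 129 CPM in WT and 69.2, 67.2 and 79.1 CPM in dKO. The genotypes were well apart and the dKO mean was 59.5% of the WT mean (log2 -0.75, SE 0.0976, edgeR adjusted p = 0.000437). Fdft1 lies on chromosome 14, where 370 of 525 tested genes (70.5%) were lower in dKO, with a median log2 fold change of -0.94 and an interquartile range from -1.29 to -0.49. The value of Fdft1 lies inside that range. Of the 20 tested genes nearest to it along the chromosome in GENCODE M21, 17 were lower and none higher, with a median of -1.19. Exons of Fdft1 also share 774 bases with those of its neighbour Ctsb on the opposite strand (log2 -1.14), and reads of overlapping genes cannot be told apart where counting by strand is not stated. Without Fdft1, 5 members rose and 5 fell.

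Sqle, squalene epoxidase, a rate-limiting enzyme of the branch, was at 146, 155 and 137 CPM in WT and at 112, 107 and 104 CPM in dKO. All dKO libraries were below all WT libraries, with a log2 fold change of -0.44 (SE 0.0857, edgeR adjusted p = 0.0039). Sc5d, the sterol desaturase that precedes the last reduction, was at 31.5, 40.5 and 34.6 CPM in WT and 25.1, 26 and 21.9 CPM in dKO. Its genotypes did not overlap either, and its log2 fold change was -0.55 (SE 0.127, edgeR adjusted p = 0.00927). Sqle, Sc5d and Fdft1 were called in all 11 alternative settings. On the authors' TPM scale Fdft1 did not overlap between genotypes, but Sqle did (68.3 to 107.5 TPM in WT, 56.1 to 71.9 TPM in dKO), as did Sc5d (11.4 to 27.7 TPM in WT, 11.1 to 19.5 TPM in dKO).

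Ebp, the sterol isomerase that moves the double bond of the ring, had the largest rise among the enzymes. It was at 8.54, 9.38 and 9.82 CPM in WT and at 19, 15.2 and 18.1 CPM in dKO, or 1.89 times the WT mean. The lowest dKO library was above the highest WT library (log2 0.91, SE 0.138, edgeR adjusted p = 0.00101), and the call held in all 11 alternative settings. Nsdhl, an enzyme of sterol demethylation, was at 35.2, 41.2 and 34.6 CPM in WT and 45.5, 48.2 and 44.7 CPM in dKO. Hsd17b7, the reductase of the same demethylation, was at 18.7, 20.3 and 18.2 CPM in WT and 24.0, 22.3 and 25.1 CPM in dKO. Neither overlapped between genotypes, and both were called close to the threshold (log2 0.32 each, SE 0.107 and 0.109, edgeR adjusted p = 0.0462 and 0.0487). In TPM, Nsdhl overlapped (23.1 to 37.6 TPM in WT, 32.1 to 42.3 TPM in dKO) and Hsd17b7 did not. Each lost its call in 7 of 11 alternative settings (edgeR adjusted p up to 0.167 for Nsdhl and 0.156 for Hsd17b7), among them the omission of WT replicate 1, WT replicate 3 or any dKO replicate. In the authors' deposited table Hsd17b7 was not called (adjusted p = 0.0688), and that table and the edgeR test gave the other 25 members the same call.

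Ebp and Nsdhl are both on the X chromosome, where 16.1% of 553 tested genes were higher and 21.3% lower in dKO, with a median log2 fold change of -0.05. Of the 20 tested genes nearest to Ebp, 8 were higher and 1 was lower, with a median of 0.65. Around Nsdhl, 9 were higher and 5 lower, with a median of 0.23. The third enzyme that rose, Hsd17b7, is on chromosome 1, and its 20 neighbours had a median of -0.11 with 3 higher and 4 lower.

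The 5 sterol enzymes that were not called spanned log2 fold changes from -0.25 to 0.26. Lss, lanosterol synthase, was the member with the least spread in WT, at 122, 120.2 and 118 CPM, and stood at 118, 117 and 118 CPM in dKO (log2 -0.03, SE 0.0755). Cyp51, the demethylase of lanosterol, was at 91.6, 101 and 83.3 CPM in WT and 107, 101 and 105 CPM in dKO. The lowest dKO library stood only just above the highest WT library, and the log2 fold change was 0.19 (SE 0.0947, edgeR adjusted p = 0.162). Dhcr7, the last reductase, was at 87.1, 115 and 90.9 CPM in WT and 124, 119 and 107 CPM in dKO, which overlap through WT replicate 2 (log2 0.26, SE 0.121, edgeR adjusted p = 0.135). Without WT replicate 2, Cyp51 and Dhcr7 were called higher (log2 0.26 and 0.39, edgeR adjusted p = 0.0217 and 0.00259). Dhcr7 was also called with a replicate block (edgeR adjusted p = 0.0422). Tm7sf2, a sterol reductase, and Msmo1, a sterol oxidase, had log2 fold changes of -0.25 (SE 0.132) and -0.16 (SE 0.113). Tm7sf2 shares 532 exon bases with Vps51 on the same strand, and Cyp51 shares 166 with Akap9 on the other.

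**Figure D2:**
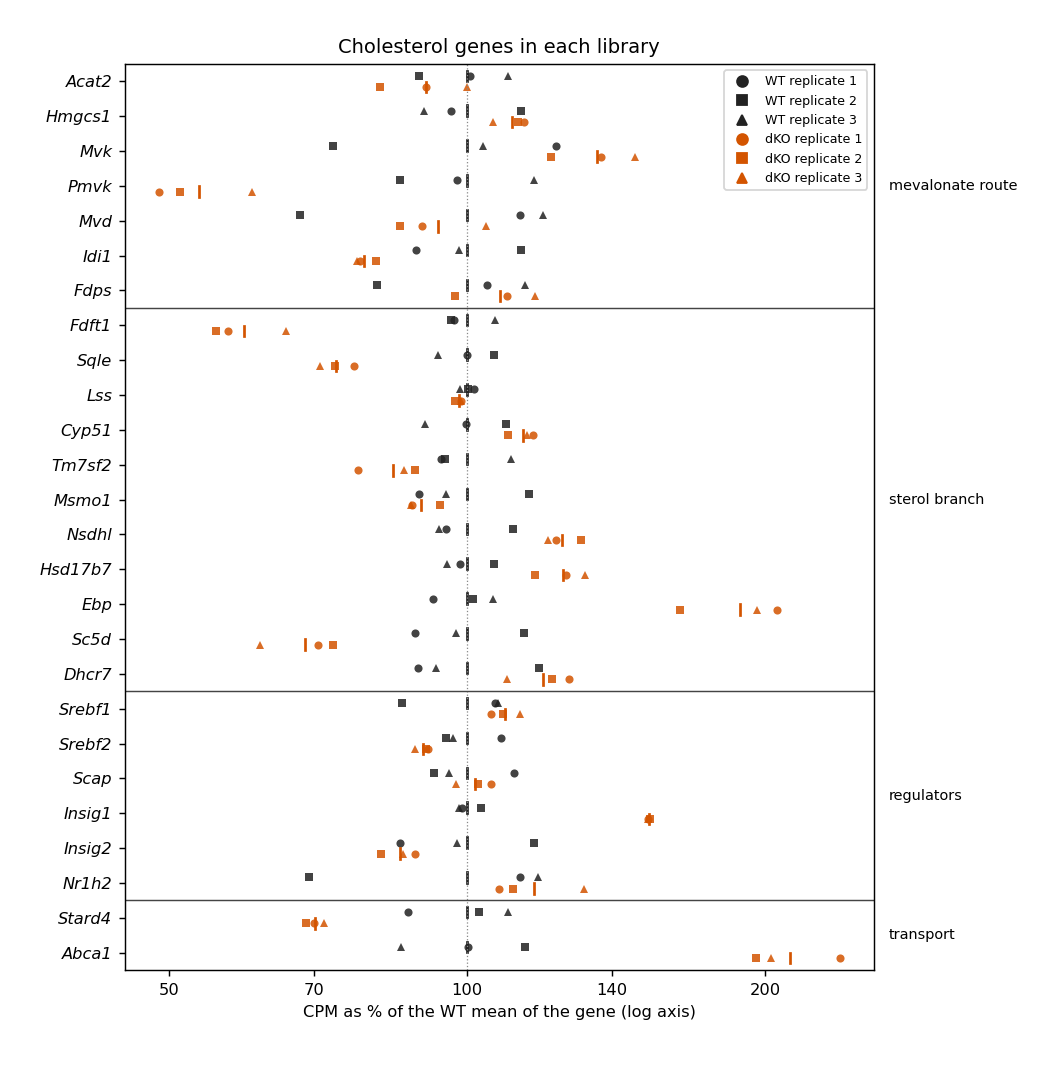
CPM of each cholesterol gene in each library as a percent of the gene's WT mean (log axis), with WT in black, dKO in orange, a marker shape for each replicate number and a short bar for each genotype's mean. The 3 dKO values of Insig1 lie on top of each other above all WT values, and WT replicate 2 (black squares) is often at the edge of the WT range.

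Among the 6 regulators, Insig1 alone was called (16.7%, beside 34.3% of all genes). Insig1, the sterol-induced retention factor of SCAP and itself a classical SREBP target, was at 116, 121 and 115 CPM in WT and 179, 180.05 and 179 CPM in dKO. The dKO libraries were nearly equal to each other and all above WT, at 1.53 times the WT mean (log2 0.61, SE 0.076, edgeR adjusted p = 0.000341), and the call held in all 11 alternative settings. Its paralog Insig2, which is not an SREBP target in the classical scheme, was at 15.6, 21.3 and 17.8 CPM in WT and 16.2, 14.9 and 15.7 CPM in dKO. These overlap, and the log2 fold change was -0.23 (SE 0.138, edgeR adjusted p = 0.235). Whether the changes of the 2 paralogs differ was not tested. Around Insig1, 17 of the 20 nearest tested genes were not called.

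The transcription factors and their escort were not called. Srebf2, whose protein drives cholesterol genes, was the most abundant regulator, at 391, 345 and 350.15 CPM in WT and 331, 329 and 320.4 CPM in dKO. Every dKO library was below every WT library, but the log2 fold change of -0.15 (SE 0.0839) was not called (edgeR adjusted p = 0.205). On the authors' TPM scale its order was the other way, with 130.4 ± 21.3 TPM in WT and 142 ± 15.8 TPM in dKO (SD, n = 3 each), and the genotypes overlapped. Srebf1, which favours fatty acid genes, averaged 104 ± 12.6 CPM across WT and 113 ± 3.9 CPM across dKO libraries (SD, n = 3 each, log2 0.13, SE 0.104), and shares 109 exon bases with Rai1 on the other strand, which fell (log2 -0.66). Scap had 54.4 ± 5.47 and 55.5 ± 2.27 CPM (SD, n = 3 each, log2 0.03, SE 0.105). Nr1h2, the LXR beta receptor, was at 77.8, 47.6 and 81 CPM in WT and 74.1, 76.5 and 90.3 CPM in dKO. WT replicate 2 was far below the other 5 libraries, and the log2 fold change of 0.22 (SE 0.19, edgeR adjusted p = 0.398) became 0.0161 without it.

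The 2 transport genes moved in opposite directions. Abca1, the pump that exports cholesterol to apolipoproteins, was at 17, 19.4 and 14.5 CPM in WT and at 40.3, 33.2 and 34.4 CPM in dKO. All dKO libraries were far above WT, at 2.12 times the WT mean (log2 1.08, SE 0.137, edgeR adjusted p = 0.000369). Per length the gene stayed the least abundant member in WT, at 3.25 ± 1.28 TPM against 10.7 ± 0.389 TPM in dKO (SD, n = 3 each), a TPM ratio of 3.29. Stard4, which carries sterols between membranes and is a known SREBP target, was at 45, 53 and 56.7 CPM in WT and 36.1, 35.4 and 37 CPM in dKO. The genotypes did not overlap, with a log2 fold change of -0.51 (SE 0.112, edgeR adjusted p = 0.00699). In TPM they did overlap, at 14.4 to 20.9 TPM in WT and 11.1 to 15.5 TPM in dKO. Both calls held in all 11 alternative settings.

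**Figure D3:**
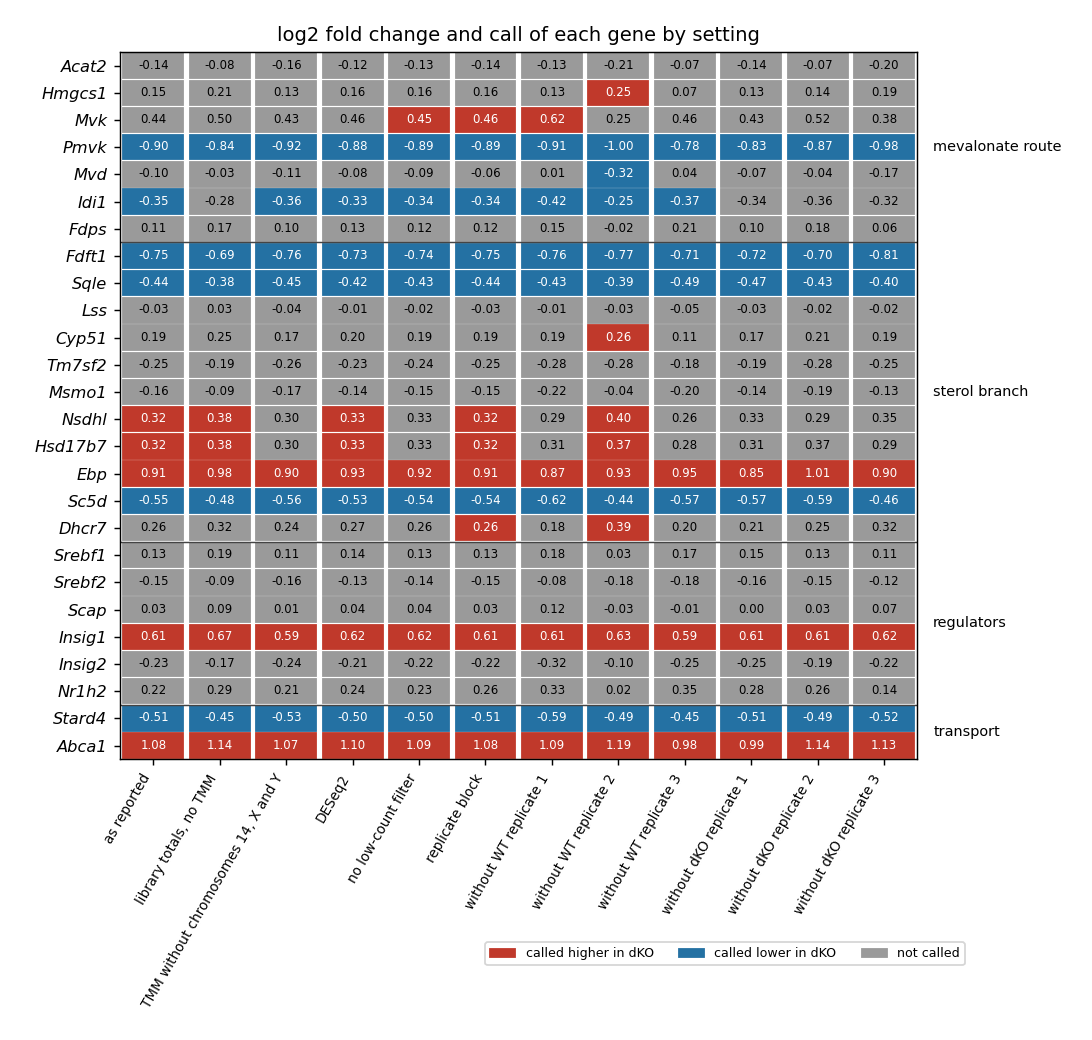
Log2 fold change of each cholesterol gene as reported and in 11 alternative settings, printed in each cell, with red for called higher, blue for called lower and grey for not called at an adjusted p under 0.05. Abca1, Insig1 and Ebp are red and Pmvk, Fdft1, Sqle, Sc5d and Stard4 blue in every column, while Nsdhl and Hsd17b7 are called in 4 of the 11 alternatives and Idi1 in 7.

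TPM and counts gave different folds for some members, and the number of counts behind each TPM of a gene differed between libraries. Counts per TPM, divided by the library's median over tested genes, stand for the length a quantifier assigns to a gene. For Srebf2 this value was 1.89, 1.86 and 1.86 in WT and 1.65, 1.63 and 1.60 in dKO, with no overlap between genotypes. Srebf2 was the only 1 of 26 members without overlap (3.85%), where 17.4% of tested genes had none. Abca1 ranged from 2.78 to 4.62 in WT and from 1.92 to 2.86 in dKO, and Insig2 reached 0.97 in WT replicate 2 against 0.343 and 0.365 in the other WT libraries. Insig1 and Sqle were nearly constant, from 1.06 to 1.09 and from 1.13 to 1.15 over the 6 libraries. Which transcripts stand behind these values is not given in the deposited table.

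**Figure D4:**
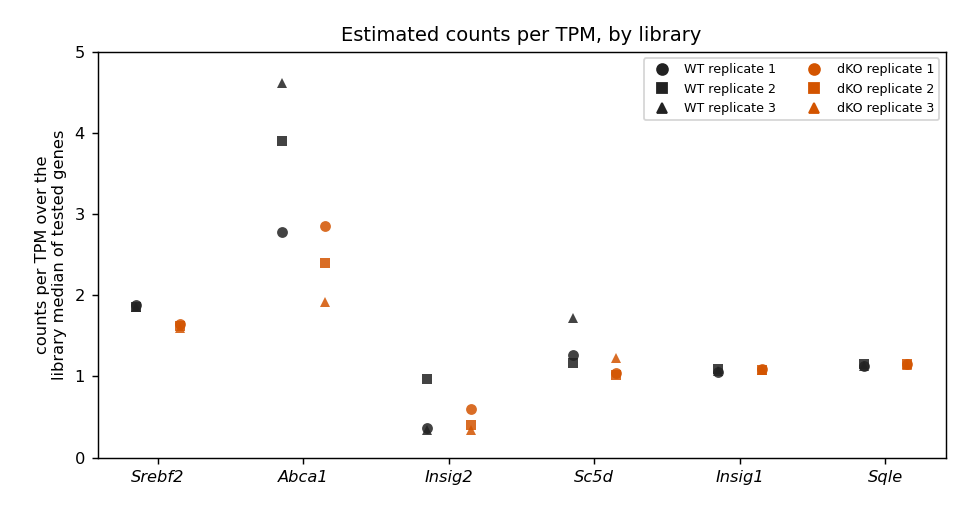
Estimated counts per TPM of 6 cholesterol genes in each library, divided by the library's median over tested genes (linear axis from 0), with WT in black, dKO in orange and a marker shape for each replicate number. Srebf2 is lower in all 3 dKO libraries, Abca1 and Insig2 vary between replicates, and Insig1 and Sqle are nearly constant.

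Genes next to the pathway were read from 5 further lists with 73 genes, of which 71 were tested. In these lists 11 rose, 9 fell and 51 were not called, so 28.2% were called beside 34.3% of all genes, and their median log2 fold change was 0.02. The number of calls was 13 without WT replicate 1, 8 without dKO replicate 1, 11 without dKO replicate 2 and 13 without dKO replicate 3.

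Fatty acid synthesis, the other arm under SREBP control, showed 2 rises, no fall and 12 genes not called, with a median of 0.09. The share called was 14.3%, beside 34.3% of all genes. The number of calls was 4 with library totals or DESeq2, and 5 with a replicate block or without WT replicate 2. It was 1 without dKO replicate 2 and 0 without dKO replicate 1. Fads1, a fatty acid desaturase, rose from 87.3 ± 5.95 to 115 ± 6.41 CPM (SD, n = 3 each, log2 0.39, SE 0.0912). Acacb, the mitochondrial acetyl-CoA carboxylase, rose by 0.35 (SE 0.103) on the log2 scale. Both calls were lost without dKO replicate 1, and that of Acacb also without WT replicate 1 or either other dKO replicate. Lpin1, a phosphatidate phosphatase, and Acss2, an acetyl-CoA synthetase, were just short of the threshold (log2 0.32 and 0.43, edgeR adjusted p = 0.0502 and 0.0512). Each was called in 5 of 11 alternative settings, with library totals, DESeq2 and a replicate block among them. Of 14 genes of the isoprenoid branch, 3 fell and none rose (21.4% called, beside 34.3% of all genes). Their median was 0.02, and 5 were called without WT replicate 2. Ggps1, which extends farnesyl diphosphate for prenylation, fell from 40.7 ± 4.49 to 30 ± 1.45 CPM (SD, n = 3 each, log2 -0.44, SE 0.113), and lost its call without dKO replicate 2 or 3. Pggt1b, a subunit of a protein prenyltransferase, fell by 0.49 (log2, SE 0.111) and lost its call without dKO replicate 1. Rabggta, a subunit of the enzyme that prenylates Rab proteins, is on chromosome 14 and fell by 1.01 (log2, SE 0.122). Dhdds, of dolichol synthesis, was not called (log2 0.32).

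In the list of SREBP processing and sterol-regulated degradation, 2 of 12 genes rose (16.7%, beside 16.4% of all genes), none fell and 10 were not called. The 2 were Nploc4 (log2 0.38, SE 0.0945) and Ufd1 (log2 0.29, SE 0.0951), cofactors that help to pull proteins out of the endoplasmic reticulum. Nploc4 lost its call without dKO replicate 1 or 2, and Ufd1 in 6 of 11 alternative settings, 5 of them the omission of WT replicate 1, WT replicate 3 or any dKO replicate. Fbxw7, which marks nuclear SREBP for destruction, was not called (log2 -0.17). Uptake, trafficking and storage genes rose in 4 of 20 cases and fell in 2 (30% called, beside 34.3% of all genes). Without dKO replicate 1 or 3, the calls were 3, those of Lrp1, Lipa and Osbpl1a. Lrp1, an endocytic lipoprotein receptor, rose from 57.7 ± 3.82 to 108 ± 4.59 CPM (SD, n = 3 each, log2 0.91, SE 0.0922, edgeR adjusted p = 9.6e-05). Of the other receptors in the list, named here after their values were seen, Vldlr fell (log2 -0.61, edgeR adjusted p = 0.0482), Scarb1 rose (log2 0.27, edgeR adjusted p = 0.0491) and Lrp8 was not called (log2 -0.11). Lipa, the lysosomal lipase that frees cholesterol from its esters, and Osbpl1a, of the oxysterol-binding family, rose by 0.73 (SE 0.161) and 0.58 (SE 0.103). Soat1, which esterifies cholesterol for storage, fell by 0.46 (log2, SE 0.115) and lost its call without dKO replicate 1 or 3.

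The list of export, oxysterol and LXR partner genes had 7 calls among 11 tested genes (63.6%, beside 34.3% of all genes), with 3 higher and 4 lower. The calls fell to 3 without WT replicate 1 or dKO replicate 1, and to 4 without WT replicate 3 or dKO replicate 2. Abcg1, a sterol exporter that like Abca1 is a textbook LXR target, rose from 16.5 ± 0.194 to 32.7 ± 2.77 CPM (SD, n = 3 each, log2 0.98, SE 0.108, edgeR adjusted p = 0.00016). Mylip and Lpcat3, other known LXR targets named here after their values were seen, were not called (log2 -0.21 and -0.09). Cyp7b1, an oxysterol hydroxylase, fell from 3.5 ± 0.433 to 0.985 ± 0.265 CPM (SD, n = 3 each, log2 -1.83, SE 0.274), and Abca2, a lipid transporter, fell by 0.54 (SE 0.11). Cyp46a1, a cholesterol hydroxylase, rose from a low level of 0.465 ± 0.0959 to 1.44 ± 0.809 CPM (SD, n = 3 each), and its call was lost in 4 of 11 alternative settings, the omission of WT replicate 1 or 3 or of dKO replicate 1 or 2. Nr1h3, the LXR alpha receptor, had 3 to 16 counts per library and was too low for a test. Ch25h had no counts in WT and 1, 2 and 1 counts in dKO.

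**Figure D5:**
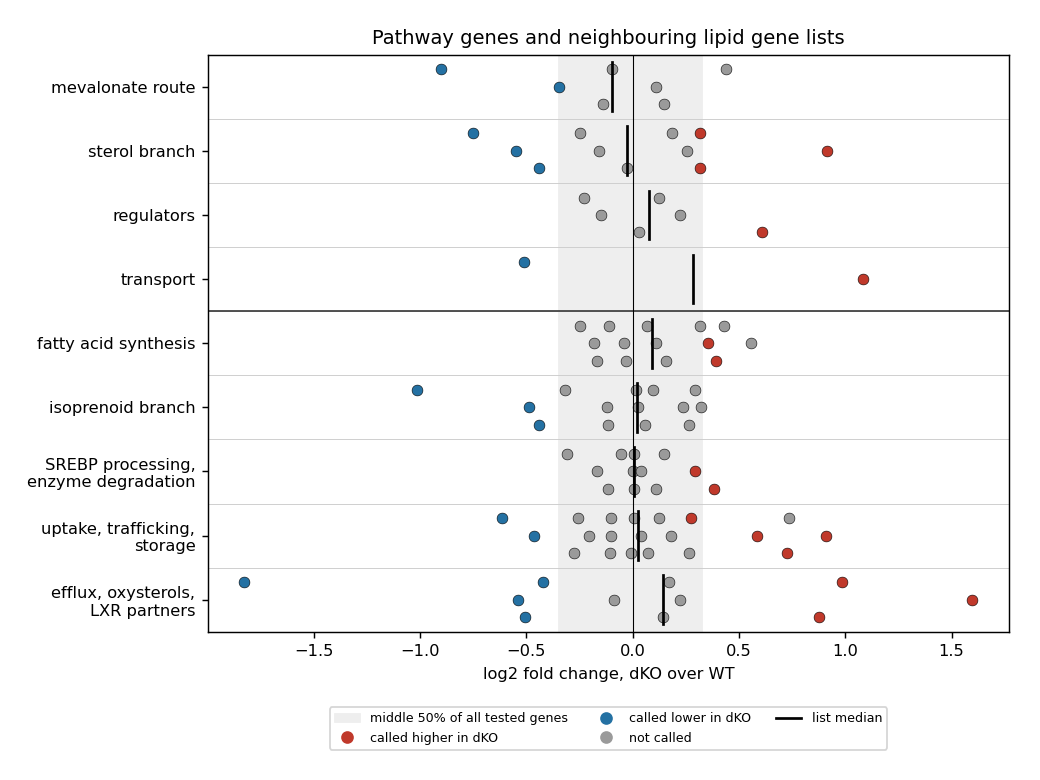
Log2 fold change (dKO over WT) of every tested gene in the 4 roles of the cholesterol genes, above the dark line, and in 5 lists of related lipid genes, below it, with red for called higher, blue for called lower, grey for not called, a black bar for the list median and a band for the middle 50% of all tested genes. List medians lie between -0.10 and 0.28, and the extremes are Cyp7b1 (-1.83) and Cyp46a1 (1.60).

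Markers of other cell types moved with the genotype. Of 12 trophoblast markers, 9 of 10 tested fell, beside 17.9% of all genes. Their summed level ran from 1220 to 1337.5 CPM in WT and from 226 to 247 CPM in dKO, led by Peg10, Krt8 and Krt18. Peg10 alone averaged 866 CPM in WT and 165 CPM in dKO, the largest part of both sums. Among the trophoblast factors, Tfap2c fell from 58.8 to 29.6 CPM and Hand1 from 26.8 to 0.792 CPM, while Eomes was not called (10.2 CPM in WT, 9.55 CPM in dKO). Elf5 and Cdx2 were at most 4.01 and 0.878 CPM in WT, and each had a dKO library at 0. Of 12 primitive endoderm markers, 7 of 10 tested fell and 1 rose, beside 17.9% and 16.4% of all genes. Their sums were 1490.4 to 1656 CPM in WT and 738 to 752 CPM in dKO, led by Sparc, Lamb1 and Lama1. Sparc alone averaged 878 CPM in WT and 502 CPM in dKO, the largest part of both sums. Among the endoderm factors, Gata4 and Sox7 fell (log2 -1.49 and -2.89). Both lie on chromosome 14, and they averaged 1.99 and 0.789 CPM in WT. Gata6 was not called (log2 0.54), Sox17 was at most 0.606 CPM and Foxa2 at most 0.122 CPM. The endoderm marker that rose, named here after its value was seen, was the receptor gene Pdgfra (log2 1.34). Of 12 fibroblast markers, 5 of 10 tested rose, beside 16.4% of all genes. Their sums were 40.3 to 51.7 CPM in WT and 67 to 68.7 CPM in dKO. Of the most abundant 3, Thy1 (log2 0.39) and Col1a1 (log2 -0.14) were not called and Acta2 rose (log2 1.18), and 9 of the 10 had a positive log2 fold change. Their part in the changes of the cholesterol genes was not tested, and in bulk RNA fewer cells of a type and less RNA per cell cannot be told apart.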

How the data were processed

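RNA of 3 WT and 3 dKO libraries was sequenced from total RNA prepared with Trizol and an Illumina TruSeq kit, per the labels' protocols. Tools listed in the submitters' processing notes, without roles, are HISAT2 2.1.0, RSEM, FastQC and DESeq 1.26.0, with the build GRCm39. No label or header gives the annotation release or strand setting. The authors deposited expected counts and TPM per library, the authors' mean TPM per genotype and, per the file headers, a gene length. Their own comparison, also deposited by the authors, holds p-values, raw and adjusted, and the dKO over WT ratio with its log2. It is quoted only by name.

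Expected counts were rounded. 24.6% of values above 0 were not whole, among them values of 10 members. Tests used edgeR 4.0.16 in R 4.3.3 with filterByExpr, TMM factors, genotype as the only term and robust quasi-likelihood fits. Adjustment was over 15714 genes. SE is the log2 fold change over the square root of F. CPM are scaled by TMM. DESeq2 1.42.0, library totals, TMM without chromosomes 14, X and Y, no filter, a replicate block and leaving out each library were alternatives. The steps were tested on simulated data. Chromosomes, gene order and exon overlaps came from GENCODE M21 (GRCm38) by Ensembl identifier, which matched 51884 of 57180 genes. Named genes are all members, the 2 targets, the 4 genes with the smallest p in each further list (1 is not reported here) and the 3 most abundant markers of each marker list, with others said to be chosen after their values were seen or given as a list's defining genes. Members, lists and tests were chosen with earlier results of these data known. Plots used Python 3.11.15 and matplotlib 3.10.9.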

Additional observations from a re-analysis of the deposited data

How the results depend on the processing

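Of the 26 cholesterol genes, 15 kept their direction and their side of the threshold in all 11 alternative settings. Of 286 values, 254 did so, 18 lost a call, 8 gained one and 6 changed sign, all 6 in genes that were not called as reported. Mvd ranged from -0.32 (without WT replicate 2) to 0.04 (without WT replicate 3, with 0.0089 without WT replicate 1), Fdps from -0.019 (without WT replicate 2) to 0.21 (without WT replicate 3), and Scap from -0.026 (without WT replicate 2, with -0.0093 without WT replicate 3) to 0.12 (without WT replicate 1). Lss reached 0.034 with library totals. Leaving out 1 library at a time gave 3588 to 6833 changed genes (1743 to 3364 higher, 1845 to 3469 lower), 8 to 15 changed members (3 to 8 higher, 5 to 7 lower) and 8 to 24 changed genes of the further lists. With TMM factors computed without chromosomes 14, X and Y, 3 members were higher in place of 5. The causes were not tested. Whether the same replicate numbers pair the libraries is not known. Deviations from the genotype means correlated at -0.08, 0.36 and 0.43 across tested genes for numbers 1, 2 and 3. WT replicates 2 and 3 correlated best with the dKO replicate of the same number, and WT replicate 1 with dKO replicate 3 (0.19). Deviations within a genotype cancel out, so these correlations depend on each other and cannot settle the pairing. A replicate block gave 6794 changed genes and 13 changed members (7 higher, 6 lower), and 28 of the further lists. DESeq2 gave 5499 genes and 11 members. Low counts kept 8 listed genes from being tested, 2 in the lipid lists and 6 among the markers.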

Other observations

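The cholesterol genes varied more among WT than among dKO libraries. The coefficient of variation of CPM was wider in WT for 23 of 26 members (88.5%), and for 73.7% of all tested genes. Its median over members was 11.8% in WT and 4.97% in dKO, beside 15.4% and 9.06% over all tested genes. Insig1 had the smallest value in dKO, at 0.299%, and Mvd the largest in WT, at 28.1%. With 3410 to 3703 counts of Insig1 per dKO library, counting noise alone gives more spread than that. The value is thus no measure of how steady the gene is. WT replicate 2 was the highest WT library for 12 members, Hmgcs1, Idi1, Sqle, Cyp51, Msmo1, Nsdhl, Hsd17b7, Sc5d, Dhcr7, Insig1, Insig2 and Abca1, and the lowest for 10, among them Mvk, Mvd, Fdps and Nr1h2. It was thus at an edge of the WT range for 84.6% of members and for 79.8% of all tested genes. Among dKO libraries, replicate 3 was at an edge for 73.1% of members and 78.2% of all tested genes.

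Neighbours along the chromosome did not always move with a member. Around Idi1, which fell, 10 of the 20 nearest tested genes were higher, 3 were lower and the median log2 fold change was 0.64. Around Abca1, which rose, 8 were higher and 2 lower, with a median of 0.30. Around Pmvk, 15 of 20 were not called and the median was -0.10, and around Stard4, 14 were not called and the median was -0.04.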
